A study of Mus musculus with 6 samples.

Results

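The spliced transcripts of 10 small nucleolar RNA host genes were examined in islets of Langerhans, the groups of hormone-secreting cells in the mouse pancreas. They were Gas5, Snhg1, Snhg3, Snhg4, Snhg5, Snhg6, Snhg7, Snhg8, Snhg11 and Snhg12, chosen by gene symbol, and each was found once among the 24407 genes of the count table. Both groups were 70-week-old C57BL/6 mice on regular chow. The first group was wild type (WT, 3 libraries) and the second carried the labels' "lmna LCS" genotype (LCS, 3 libraries), a change of the Lmna gene known as lamin C-only, with which the gene gives lamin C and no lamin A. Titles of the LCS libraries carry the letters "KIKI" and those of the WT libraries "wt". Islets of 3 mice were pooled for each library, so 1 value stands for a pool and the spread within a group is a spread between pools. The labels give neither sex nor batch, and no tissue restriction of the allele.

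A small nucleolar RNA (snoRNA) guides the chemical modification or the cutting of ribosomal and other RNAs in the nucleolus. Box C/D snoRNAs guide 2′-O-methylation and box H/ACA snoRNAs guide pseudouridylation. Most mammalian snoRNAs lie in introns of a host gene, are trimmed out of the intron after splicing and carry no poly(A) tail, whereas the exons of the host are joined into a spliced, polyadenylated RNA. In the transcripts described here that spliced RNA is not known to code for a conserved protein. Several of them begin with a run of pyrimidines (a 5′ terminal oligopyrimidine tract, TOP), as ribosomal protein messages do, and are known to be translated and then removed by nonsense-mediated decay, so that their level depends on decay as well as on transcription. Gas5 is further known for binding the glucocorticoid receptor.

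The libraries held 41529670 to 68036676 counts in LCS and 26123654 to 34483948 in WT. Of these, 52.3% to 54.1% in LCS and 7.64% to 18.5% in WT fell on 3 rows that hold ribosomal RNA reads (Rn45s, Lars2 and Mir6236), which left 19057533 to 32462401 and 23511554 to 28094765 other counts. Levels are therefore given as counts per 1000000 scaled by the TMM method (CPM). The edgeR normalization factors lay between 0.633 and 0.749 for the LCS libraries and between 1.395 and 1.498 for the WT libraries. The summed level of 22 acinar (digestive enzyme) markers was 566.4 to 969.7 CPM in LCS and 192.5 to 289.8 CPM in WT, with 15 of 18 tested called higher and Amy2a5 at 0 throughout. The 13 islet endocrine markers summed to 199100 to 296400 CPM in LCS and 167000 to 192700 CPM in WT. The part of ribosomal reads and of acinar RNA in the results below was not tested, except where a value without the ribosomal rows is given. In whole islets, fewer cells of a type and less RNA per cell cannot be told apart. Lmna itself ranged from 62 to 78.9 CPM in LCS and from 21 to 61.3 CPM in WT; lamins A and C share this row, so its level is no check of the genotype.

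Snhg8 and Snhg6 were higher in LCS islets, by 2.59-fold and 2.14-fold, and no host was called lower. All 10 passed the filter on low counts and were tested with edgeR's quasi-likelihood test over 14539 genes, with Benjamini-Hochberg adjustment and a call at an adjusted p under 0.05. By that rule 2 of 10 hosts were called higher, where 2.06% of all tested genes were, and 0 of 10 were called lower, where 0.144% were. Before adjustment, at a p under 0.05, 3 hosts were higher and 1 lower, beside 13.3% and 10.8% of all genes. By the DESeq2 Wald test 2 were higher and 1, Snhg11, was lower, beside 7.1% and 4.38% of all genes. The log2 fold change was above 0 for 9 hosts and below 0 for Snhg11, and its median was 0.30, beside 0.01 over all tested genes. These directions are those of TMM scaling: with total counts, which include the ribosomal rows, the median of all genes moved to -1.06 and 7 of the 9 fell below 0. Relative to that median, Snhg8 then stood at 1.33, Snhg6 at 1.09 and Snhg11 at -1.09, near their TMM values. Between 107 and 5841 reads were counted per host and library. For Snhg7, the host with the lowest count, that minimum carries a counting error of 9.67%, below the 21.2% by which the fitted level of a typical gene varied between pools.

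**Figure D1:**
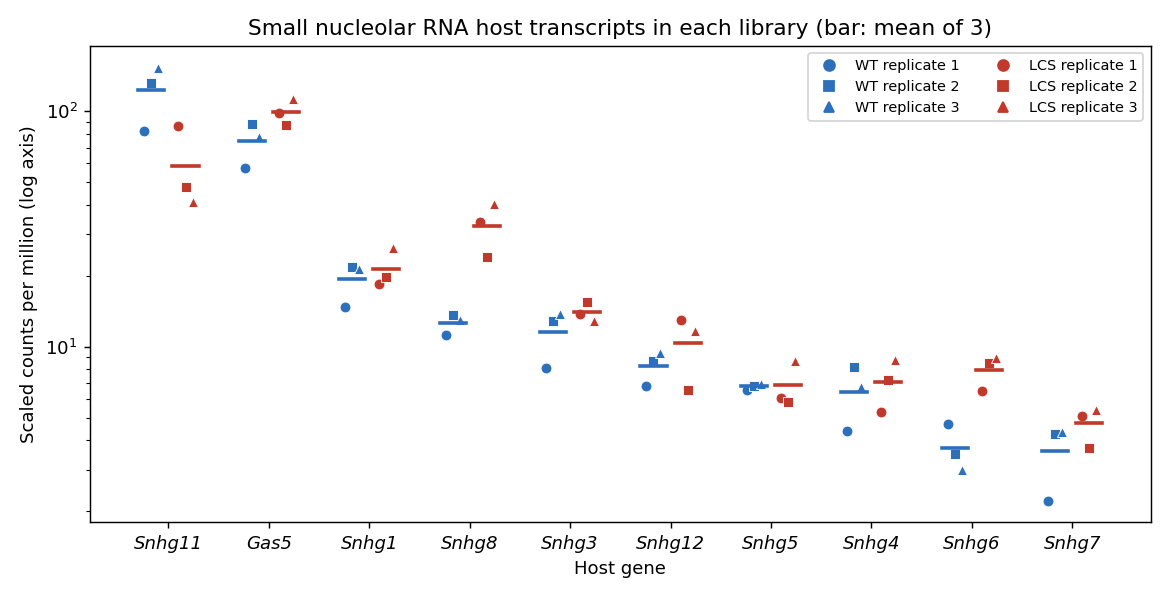
Level of each of the 10 hosts in the 6 libraries, in TMM-scaled CPM on a log axis. Points are libraries and bars are group means. Snhg6 and Snhg8 are the hosts whose 3 LCS libraries all lie above the 3 WT libraries, and the Snhg11 points overlap because LCS replicate 1 lies above WT replicate 1.

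Snhg8 is the host of the box H/ACA snoRNA Snora24. In the order of the replicates, its level was 33.7, 24 and 40.3 CPM in LCS and 11.2, 13.6 and 13 CPM in WT. Every LCS library lay above every WT library, and the LCS libraries were more spread than the WT libraries (32.7 ± 8.18 against 12.6 ± 1.23 CPM, SD, n = 3 each). The log2 fold change was 1.37 with a standard error (SE) of 0.20 and a 95% interval of 0.92 to 1.82, and the adjusted p of edgeR's quasi-likelihood test was 0.0122. The groups of 14.6% of all tested genes were likewise separate with LCS higher, and those of 12% with LCS lower. Without LCS replicate 1 the log2 fold change was 1.38 and the adjusted p 0.0612, so the call was lost without a change in size.

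Snhg6 is the host of the box C/D snoRNA Snord87. It stood at 6.47, 8.50 and 8.99 CPM in the LCS libraries and at 4.68, 3.50 and 3.00 CPM in the WT libraries. The groups did not overlap, and the gap between the lowest LCS and the highest WT library was narrower than for Snhg8. The log2 fold change was 1.10 (SE 0.23, 95% interval 0.58 to 1.62) with an adjusted p of 0.0431, close under the threshold. The call was lost without each LCS replicate in turn (adjusted p of 0.094, 0.0691 and 0.175 for replicates 1 to 3), without WT replicate 2 (0.184) and without WT replicate 3 (0.132), with log2 fold changes between 0.96 and 1.25. It was also lost after an offset for transcript length, at a log2 fold change of 0.80 and an adjusted p of 0.0873, where Snhg8 stayed called at 1.03 and 0.041.

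Gas5 is the host of a series of box C/D snoRNAs and had the highest mean level per length in both groups, among the hosts with a length. Its level was 98.3, 87.1 and 112 CPM in LCS and 57.3, 88.3 and 77.6 CPM in WT. The groups overlapped, since WT replicate 2 lay above LCS replicate 2 and WT replicate 1 was the lowest library. The log2 fold change was 0.42 (SE 0.18, 95% interval 0.01 to 0.82), and it did not pass the test, with an adjusted p of 0.201.

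Snhg11, a host transcript known for its level in neurons, was the one host with a lower mean in LCS. Its level was 86.1, 47.7 and 41.3 CPM in LCS and 82.2, 132 and 153 CPM in WT. The groups overlapped at a single pair of libraries, LCS replicate 1 and WT replicate 1. The log2 fold change was -1.07 (SE 0.30, 95% interval -1.73 to -0.40), at an adjusted p of 0.0876 by edgeR's quasi-likelihood test, so it was not called. The DESeq2 Wald test called it at -1.09 and an adjusted p of 0.00669, and leaving out WT replicate 1 gave -1.28 and 0.00921 with edgeR. The summed level of 10 neural and Schwann cell markers moved with it, at 249.4 to 385.5 CPM in LCS and 413.3 to 726.3 CPM in WT. None of those 10 was called with edgeR; 2 were lower by unadjusted p alone, and 2 with DESeq2. Of these markers Map2, a neuronal microtubule protein, was at 250, 246 and 147 CPM in LCS and 273, 410 and 531 CPM in WT (log2 fold change -0.92, adjusted p 0.0965). Gfap, an astrocyte and Schwann cell filament protein, lay under 1.2 CPM in every library. Their part in the level of Snhg11 was not tested.

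For the other 6 hosts the test found no difference, and their intervals include 0; the upper limits reach 1.04 on the log2 scale for Snhg7 and 0.90 for Snhg12. Snhg1, the host of Snord22 and of further box C/D snoRNAs, was at 18.4, 19.8 and 26.1 CPM in LCS and 14.8, 21.8 and 21.3 CPM in WT (log2 fold change 0.15, 95% interval -0.30 to 0.60). Snhg3, the host of the Snora73 snoRNAs, was at 13.7, 15.5 and 12.9 CPM in LCS and 8.11, 12.8 and 13.7 CPM in WT (0.28, -0.19 to 0.76). In both, WT replicate 1 was the lowest of the 6 libraries and the other libraries were interleaved. Snhg4, the host of Snora74a, was at 5.28, 7.19 and 8.74 CPM in LCS and 4.37, 8.19 and 6.77 CPM in WT (0.14, -0.47 to 0.74). Snhg7, the host of Snora17 and Snora43, was at 5.10, 3.73 and 5.39 CPM in LCS and 2.22, 4.27 and 4.34 CPM in WT (0.39, -0.26 to 1.04). Here too WT replicate 1 was lowest, and LCS replicate 2 lay below WT replicates 2 and 3. Snhg12, which holds Snora16a, Snora44, Snora61 and Snord99, was at 13, 6.52 and 11.6 CPM in LCS and 6.78, 8.73 and 9.38 CPM in WT (0.32, -0.26 to 0.90). Snhg5, the host of the Snord50 snoRNAs, was at 6.08, 5.83 and 8.68 CPM in LCS and 6.57, 6.83 and 6.92 CPM in WT (0.02, -0.44 to 0.47). Its WT libraries lay within a narrow range, between the LCS libraries. The adjusted p of these 6 ran from 0.434 for Snhg3 and Snhg7 to 0.967 for Snhg5.

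To compare the libraries over all hosts, the level of each host was standardised over the 6 libraries on the log2 scale, and the mean over the hosts was 0.252, -0.083 and 0.853 in LCS replicates 1 to 3 and -1.124, 0.092 and 0.01 in WT replicates 1 to 3. WT replicate 1 was therefore lowest and LCS replicate 3 highest, and the groups overlapped. Of genes that are not hosts in this set, the 5 whose levels followed the mean most closely over the 6 libraries, which share their scaling factors, were Akr1c19 and Ech1 (Pearson's r of 0.991 each), Nbn (0.99), Scgn (0.987) and Fas (0.984). None of these 5 was called, with log2 fold changes of 0.27, 0.18, 0.12, 0.34 and 0.64.

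**Figure D2:**
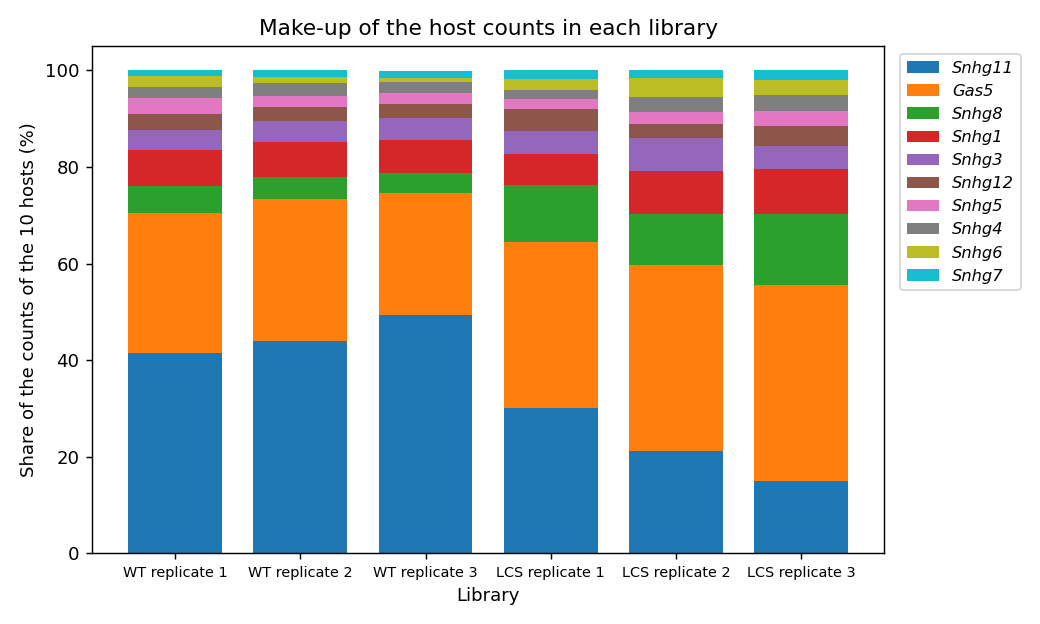
Share of each host in the summed counts of the 10 hosts, in percent, 1 stacked bar per library. Gas5, Snhg3, Snhg7 and Snhg8 take more of the sum in each LCS library than in each WT library, and Snhg11 takes less, at 14.9% to 30.1% in LCS and 41.5% to 49.4% in WT.

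The shares of 5 hosts in the host pool separated the groups, while its sum did not. Of these 5 only Snhg8 was called by its level, and how often shares of other genes separate was not computed. The summed level of the 10 hosts was 286.1, 225.8 and 276.3 CPM in LCS and 198.3, 299.5 and 308.6 CPM in WT. Shares within 1 library do not depend on its scaling factor. Gas5 held 37.9% ± 3.23 of the host counts in LCS and 27.8% ± 2.35 in WT (SD, n = 3 each). Snhg8 held 12.3% ± 2.02 in LCS and 4.81% ± 0.767 in WT. Snhg3 held 4.66% to 6.84% in LCS and 4.09% to 4.44% in WT, and Snhg7 1.65% to 1.95% and 1.12% to 1.43%, so these too were higher in every LCS library. Snhg11 held 22.1% ± 7.61 in LCS and 44.9% ± 4.08 in WT, and since shares sum to the whole, its lower share raises those of the others. Without Snhg11 the other 9 hosts summed to 200, 178.2 and 235 CPM in LCS and 116.1, 168 and 156 CPM in WT. By level, in CPM, the groups overlapped for Gas5, Snhg3 and Snhg7. Shares of a host sum without Snhg11 were not computed, so their higher shares are not shown apart from its lower share. Set against Gas5 alone, Snhg8 had 34.3, 27.6 and 35.8 counts per 100 Gas5 counts in LCS and 19.6, 15.4 and 16.7 in WT, again without overlap. For Snhg6 the same ratio was 6.58, 9.76 and 8 in LCS and 8.17, 3.97 and 3.87 in WT, which overlapped through WT replicate 1. These shares and ratios restate the counts behind the fold changes above and were not tested.

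Between hosts, levels were compared per kilobase of transcript for the 8 hosts with a length (all but Snhg4 and Snhg7). In WT the order was Gas5 (118 ± 25 CPM per kb), Snhg11 (91.9 ± 27.2), Snhg1 (32.0 ± 6.45), Snhg3 (26.4 ± 6.87), Snhg8 (23.9 ± 2.33), Snhg12 (9.06 ± 1.48), Snhg5 (8.14 ± 0.221) and Snhg6 (6.67 ± 1.54; SD, n = 3). Ranges of neighbours in this order overlapped except between Snhg11 and Snhg1 and between Snhg8 and Snhg12. In LCS, Snhg8 stood at 61.9 ± 15.5 CPM per kb, the 2nd level after Gas5 at 158 ± 20.2 and before Snhg11 at 43.9 ± 18.2. The hosts are short RNAs, with median annotated lengths of 437 to 1329 nucleotides, and Snhg11 is the longest. Protein-coding and long noncoding genes of 500 to 1000 nucleotides, the class of 6 of these 8 hosts, were called higher in 3.52% of 4574 cases. Those under 500 nucleotides, the class of Snhg3, were called higher in 15.4% of 331, and those of 1000 to 2000 nucleotides, the class of Snhg11, in 0.919% of 4136. The part of length in the hosts' values was not tested beyond the offset given for Snhg6 and Snhg8.

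The start sites of some hosts are shown because the TOP tract is a known feature of several of these genes. Each window is taken from RefSeq on GRCm38.p6 and runs from 25 bases before the annotated start through the first 25 transcribed bases. Capitals mark a run of at least 5 C or T that reaches into the stretch from 5 bases before the start to base 10 of the transcript. Snhg8 (higher in LCS), Gas5 at its 2nd annotated start, Snhg1 and Snhg12 (not called) each hold such a run, and Snhg11 (lower mean in LCS) does not.
Snhg8, chr3:123508312-123508361, minus strand: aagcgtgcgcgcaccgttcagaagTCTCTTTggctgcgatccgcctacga
Gas5, chr1:161035141-161035190, plus strand: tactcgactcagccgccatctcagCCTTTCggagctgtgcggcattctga
Snhg1, chr19:8723462-8723511, plus strand: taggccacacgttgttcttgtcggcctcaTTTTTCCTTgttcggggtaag
Snhg12, chr4:132308653-132308702, plus strand: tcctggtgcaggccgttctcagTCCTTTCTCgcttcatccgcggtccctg
Snhg11, chr2:158375688-158375737, plus strand: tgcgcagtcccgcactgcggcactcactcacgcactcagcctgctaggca

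In Snhg8, Gas5, Snhg12 and Snhg7 (not shown) the run spans the annotated start itself. In Snhg1 it begins at base 5 of the transcript, in Snhg3 at base 3 and in Snhg5 at base 8 (both not shown). A run counted here therefore need not open the transcript, as a TOP tract does. A gene was counted if any annotated start held the letters; the 1st annotated start of Gas5 holds neither run nor TATA. Of the 8 hosts with a RefSeq start window (all but Snhg4 and Snhg6) 7 held a run (87.5%), beside 42.0% of 27025 genes, 54.5% of 11 other noncoding hosts and 46.7% of 30 protein-coding hosts. The letters TATA were found within the 50 bases before the start in 6 of 8 (75%), beside 10.7% of all genes, 0 of the 11 other noncoding hosts and 6.67% of the protein-coding hosts. That search reaches beyond the 25 bases printed before each start. TATA reads the same on both strands, and the run was searched on the gene's own strand only. These letters describe the annotated start, and the starts used in these islets were not measured.

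The snoRNAs inside the hosts were examined next, since host and snoRNA come from the same primary transcript. RefSeq places 31 snoRNA genes inside the 10 hosts, of which 11 had a row in the count table and 9, in 6 hosts, passed the filter on low counts. Snora24, inside Snhg8, was listed with 0 counts in all 6 libraries, and Snora43, inside Snhg7, had 2 to 19 counts and was not tested. Of the 9 tested, 3 were higher in LCS and 0 lower, with a median log2 fold change of 0.56. Among the 3 is Snora74a, which passed the filter through its LCS libraries. The share called is near that of all tested snoRNA rows, of which 22 of 54 (40.7%) were called higher and 0 lower, with a median log2 fold change of 1.78. The libraries were made from poly(A) RNA and ribosomal rows were also higher in LCS, and the part of RNA without a poly(A) tail in these snoRNA values was not tested.

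Snord22, a box C/D snoRNA inside Snhg1, had the highest level of the 9. It stood at 142, 127 and 167 CPM in LCS and at 9.06, 6.42 and 15.4 CPM in WT. In each LCS library it was counted more often than its own host, and in each WT library less often. The log2 fold change was 3.82 (SE 0.30, edgeR adjusted p 0.000266), where that of Snhg1 was 0.15. Snora74a, inside Snhg4, was at 10.3, 6.19 and 1.82 CPM in LCS and at 0.0832, 0.271 and 0.183 CPM in WT, from 4 to 11 counts per WT library. LCS replicate 3 was far below the other LCS libraries and still above all WT libraries, and the log2 fold change was 5.10 (SE 0.68, edgeR adjusted p 0.00711). Snora74a passed the filter on low counts through its LCS libraries, so this call is not independent of the filter. Snora44, a box H/ACA snoRNA inside Snhg12, was at 5.70, 6.32 and 2.23 CPM in LCS and at 1.02, 0.469 and 0.888 CPM in WT (log2 fold change 2.58, SE 0.44, adjusted p 0.0196). Snora17, inside Snhg7, was at 1.47, 1.53 and 0.861 CPM in LCS and 0.229, 0.395 and 0.601 CPM in WT, without overlap, and did not pass the test (1.67, adjusted p 0.0771). The other 5 were not called and had log2 fold changes of 0.56 for Snora61, 0.55 for Snora16a and 0.31 for Snord99 (all inside Snhg12), -0.10 for Snord87 (inside Snhg6) and -0.79 for Snord47 (inside Gas5). Snord87 and Snord47 had 3 to 15 and 8 to 44 counts per library, which leaves wide errors (SE 0.74 and 0.53). Some snoRNAs have near-identical copies elsewhere in the genome, and reads of such copies could be split or assigned to either.

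The sequences of the called snoRNAs Snord22 and Snora44 are given from GENCODE M21 on GRCm38, to show the boxes that place them in their classes. Capitals mark CTGA, the letters of box D, in Snord22 and a match to ANANNA, the letters of box H, in Snora44.
Snord22, chr19:8725866-8725991, plus strand: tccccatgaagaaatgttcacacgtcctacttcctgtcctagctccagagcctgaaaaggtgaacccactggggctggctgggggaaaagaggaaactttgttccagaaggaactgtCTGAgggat
Snora44, chr4:132309941-132310069, plus strand: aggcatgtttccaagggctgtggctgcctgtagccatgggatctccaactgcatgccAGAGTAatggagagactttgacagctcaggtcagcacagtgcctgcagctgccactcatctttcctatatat

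The CTGA of Snord22 lies at bases 118 to 121 of 126, and 97.9% of 97 snoRNAs named Snord held CTGA in their last 20 bases. The AGAGTA of Snora44 lies at bases 58 to 63 of 129, and 85.4% of 41 snoRNAs named Snora held ANANNA between bases 50 and 80. Only the given strand was searched, which is the strand of the RNA.

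**Figure D3:**
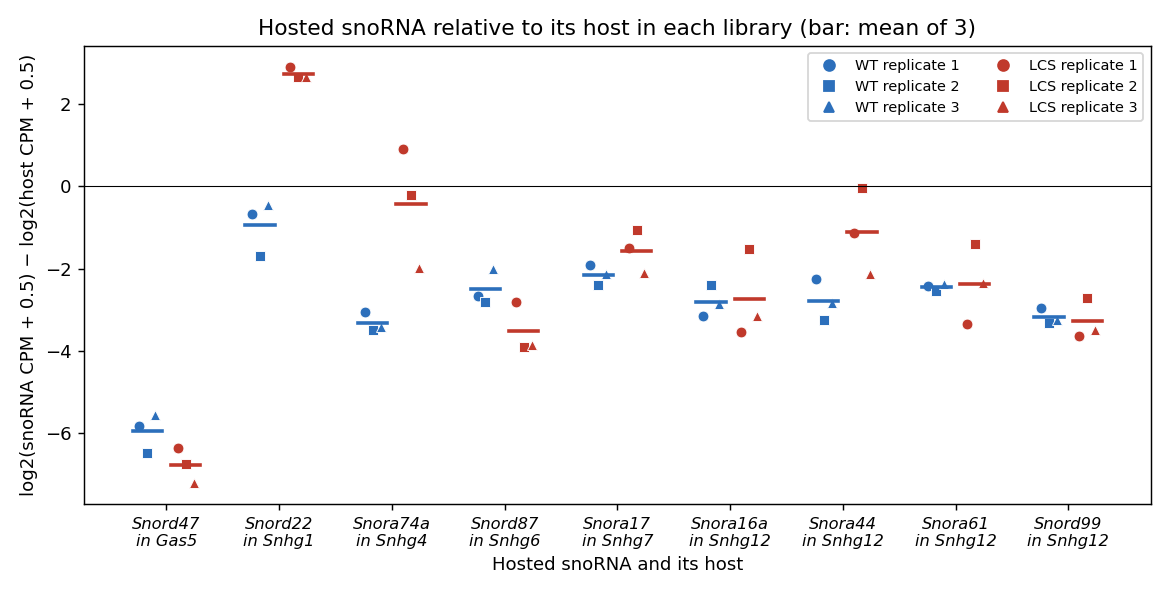
Log2 of the snoRNA level over the level of its host in each library, with 0.5 CPM added to both, for the 9 tested pairs. Points are libraries and bars are group means; Snord22 over Snhg1 separates the groups most, at 2.65 to 2.91 in LCS and -1.69 to -0.45 in WT.

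The ratio of snoRNA to host was compared per library with an exact two-sided permutation test, which cannot give a p below 0.1 with 3 against 3 libraries. The log2 ratio of Snord22 to Snhg1 was 2.91, 2.65 and 2.65 in LCS and -0.68, -1.69 and -0.45 in WT, a difference of 3.68. The differences were 2.89 for Snora74a over Snhg4, 1.68 for Snora44 over Snhg12 and -1.03 for Snord87 over Snhg6. These 4 of 9 pairs had no overlap between groups, 3 with LCS higher and 1 lower. Each had an exact permutation p of 0.1 (0.225 adjusted over the 9 pairs). Snora74a, among the 3, passed the filter through its LCS libraries, so its separation is not independent of the filter and is no support. Its WT levels, 0.0832 to 0.271 CPM, lay below the 0.5 CPM added. The 3 higher pairs are those of the 3 snoRNAs called above, and all tested snoRNA rows had a median log2 fold change of 1.78. How often ratios of snoRNAs to other genes separate the groups was not computed. The size of a ratio at a low snoRNA level rests on the amount added: with 0.1 or 2 CPM added in place of 0.5, the difference was 4.08 or 1.63 for Snora74a, 2.1 or 0.986 for Snora44, and 3.73 or 3.49 for Snord22. The exact permutation p rose to 0.3 for Snord87 with 0.1 CPM added and to 0.2 for Snora44 with 2 CPM added, so those separations depend on that choice. For Snord87 the lower ratio came with a higher level of the host Snhg6, while the snoRNA itself had a log2 fold change of -0.10. Its mean level, 0.249 CPM in LCS and 0.251 CPM in WT, was below the 0.5 CPM added. The other 5 pairs overlapped, with differences from -0.82 for Snord47 over Gas5 to 0.59 for Snora17 over Snhg7. Within Snhg12, 4 snoRNAs of 1 primary transcript had ratio differences of 1.68 (Snora44), 0.08 (Snora61), 0.06 (Snora16a) and -0.10 (Snord99).

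Other host genes of snoRNAs were set beside the 10. Of 11 further noncoding hosts, 1 was called higher and 0 lower with edgeR, beside 2.06% and 0.144% of all tested genes. Before adjustment these numbers were 6 and 2, beside 13.3% and 10.8%, and with DESeq2 4 and 2, beside 7.1% and 4.38%. The median log2 fold change of these 11 hosts was 0.86. The called one, 2410006H16Rik (also Snhg29), was at 21.4, 16.9 and 23.0 CPM in LCS and 10.5, 9.06 and 6.50 CPM in WT (log2 fold change 1.23, SE 0.21, adjusted p 0.0198). Next by p were Snhg10 (1.08, adjusted p 0.107), Rian (-0.58, 0.123) and Epb4.1l4aos (1.40, 0.126), none of them called. Of 40 protein-coding hosts, 10 were called higher and 0 lower with edgeR. Before adjustment these numbers were 21 and 2, and with DESeq2 17 and 0. The shares of all tested genes beside them are those just given for each test. The median log2 fold change of these 40 hosts was 0.44. By p they were led by the ribosomal protein genes Rps20 (1.42), Rpl13a (1.26), Rpl23a (1.0) and Rps12 (1.17). Ribosomal protein genes make up much of this list, and no difference between the lists was tested.

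**Figure D4:**
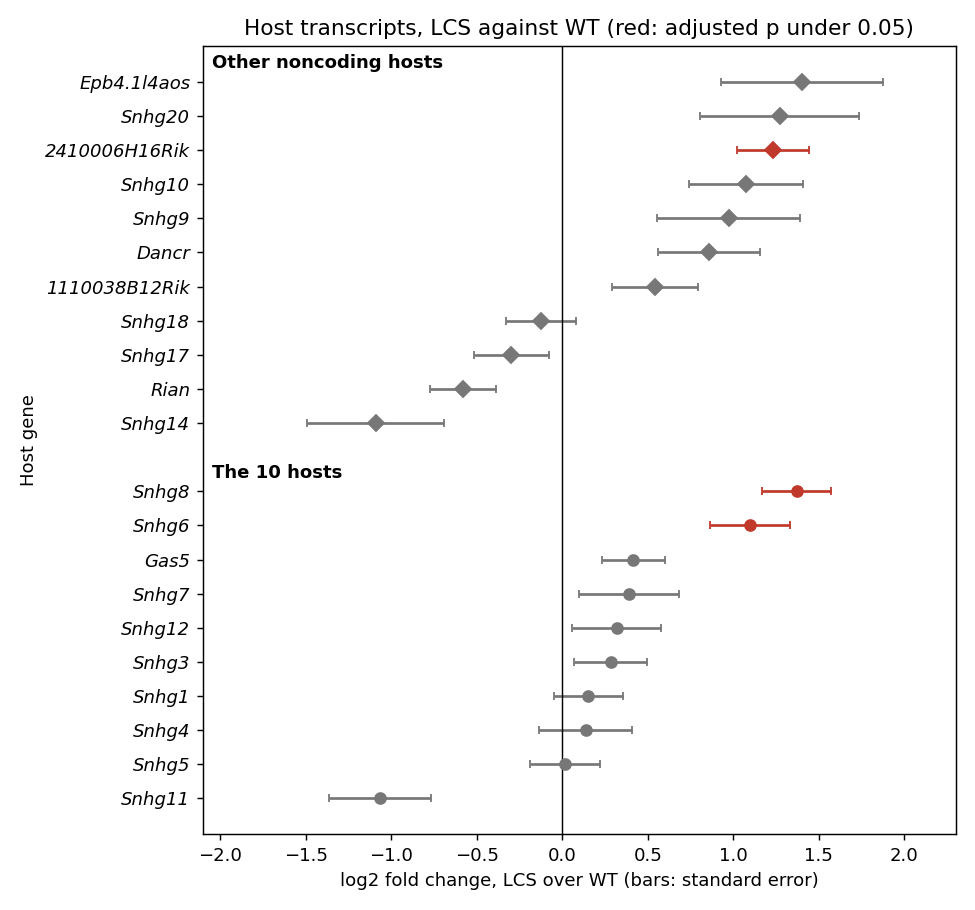
Log2 fold change of LCS over WT for the 10 hosts (circles) and the 11 other noncoding hosts (diamonds); bars are standard errors, the line at 0 stands for equal levels and red marks an adjusted p under 0.05. Snhg8, Snhg6 and 2410006H16Rik are marked, and Snhg14 and Snhg11 lie lowest in their groups.

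Pathways that bear on host RNA held no edgeR call, where 2.06% of all tested genes were called higher and 0.144% lower. In lists of 15 to 24 genes, 0 calls are near those shares. For the numbers in brackets, the shares of all genes were 13.3% higher and 10.8% lower before adjustment, and 7.1% and 4.38% by DESeq2. Of 22 nonsense-mediated decay factors 0 were called in either direction (2 higher and 2 lower before adjustment; DESeq2 0 and 1). Their median was 0.09 on the log2 scale. The 4 with the smallest p were Smg1, the kinase of the pathway (-0.77, adjusted p 0.122), Eif4a3 (0.48), Upf2 (-0.50) and Magoh (0.44). Of 24 coding transcripts known as targets of that decay 0 were called (3 and 6; DESeq2 1 and 2), with a median of 0.19; Rps9 (0.67), Ptbp2 (-0.70), Smg1 and Atf4 (0.52) had the smallest p. Of 22 snoRNP proteins and assembly factors 0 were called (6 and 0; DESeq2 2 and 0), with a median of 0.29. Among them Nhp2, a core protein of box H/ACA particles, was at 9.30, 10.5 and 15.0 CPM in LCS and 7.44, 4.07 and 4.1 CPM in WT (1.15, adjusted p 0.0648). Pih1d1, an assembly factor, had 0.95 (adjusted p 0.0715), Nhp2l1 0.42 and Nop10 0.50. Of 16 genes that control TOP translation and mTORC1 0 were called (2 and 3; DESeq2 0 and 0), with a median of -0.07; Rps6kb1 (-0.50), Eif4ebp1 (1.20), Akt1s1 (0.69) and Tsc1 (-0.51) had the smallest p. Of 15 genes of the glucocorticoid receptor and its targets 0 were called (4 and 2; DESeq2 3 and 0), with a median of 0.18. The metallothioneins Mt2 (0.59, adjusted p 0.0791) and Mt1 (0.64), the inhibitor Nfkbia (0.68) and the chaperone Fkbp4 (0.48) had the smallest p.

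A list of 22 long noncoding RNAs not known as hosts, chosen with earlier results of these data known, was set beside the hosts. Of 17 tested, 2210408F21Rik was called higher (0.98, adjusted p 0.0454) and Neat1, the scaffold of paraspeckles, lower (-1.70, adjusted p 0.0132). Before adjustment 1 was higher and 8 lower, DESeq2 called 1 and 6, and the groups were separate with LCS lower for 7. Of all tested genes 10.8% were lower before adjustment, 4.38% were called lower by DESeq2, and 12% were separate with LCS lower. The median over the 17 was -0.38 on the log2 scale. The next by p were Malat1 (-1.24, adjusted p 0.0561) and Meg3 (-1.25, 0.0583). Over all 650 tested genes annotated as long noncoding, 12 (1.85%) were called higher and 1 lower, and their median log2 fold change was 0.04. The lower median of the list is therefore not that of the class. Of 13683 protein-coding genes 1.81% were called higher.

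Genes next to the hosts did not include a call. RefSeq gene order gave 23 genes that overlap a host or stand directly before or after it, and 18 of them were tested. Of these 0 were called higher and 0 lower with edgeR, near the 2.06% and 0.144% of all tested genes. An unadjusted p under 0.05 was passed by 8, in both directions, where 13.3% of all genes were higher and 10.8% lower. The median log2 fold change of the 18 neighbours was -0.16 with a range of -0.72 to 0.92. The 2 neighbours of Snhg8, Prss12 and Ndst3, had too few counts to be tested. Snhg6 overlaps Mcmdc2 on the opposite strand, and Mcmdc2 had a log2 fold change of -0.22; its other neighbours Sgk3 and Tcf24 had -0.49 and -0.72. Gas5 overlaps Zbtb37 (-0.71) on the opposite strand. Since the strand setting of the counting is not known, a read in such an overlap cannot be assigned with certainty. Trnau1ap, next to Snhg12, had 0.92 and an adjusted p of 0.07.

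Without total-count scaling, each host was tested under 15 to 17 other settings, depending on whether it passed the filter or had a length. Snhg8 was called higher in 16 of 17, with log2 fold changes of 1.03 to 1.58. Snhg6 was called higher in 10 of 16 (0.80 to 1.41) and Snhg11 lower in 5 of 17 (-1.43 to -0.86). The remaining 7 hosts were called in none of these. Leaving out the ribosomal rows, or these with small RNA and histone rows, gave 2 hosts called higher and 0 lower, as with them.

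**Figure D5:**
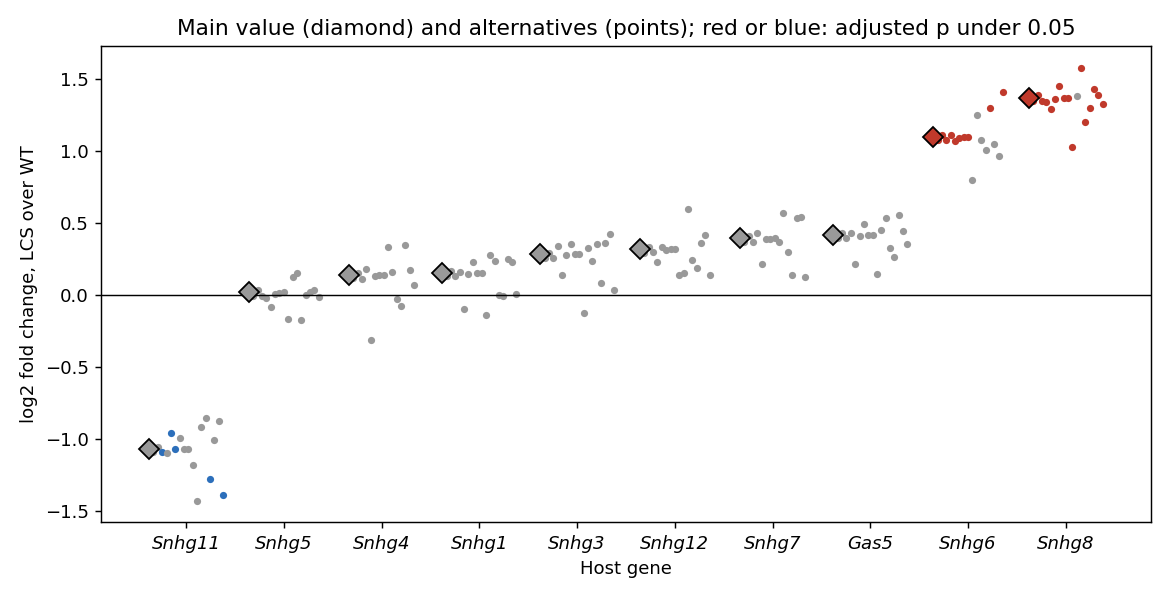
Log2 fold change of LCS over WT for each host, with the main value as a diamond and the alternatives other than total-count scaling as points; colour marks an adjusted p under 0.05. Snhg8 and Snhg6 lie above 0 and Snhg11 below 0 under every setting drawn, while Snhg5, Snhg4, Snhg1 and Snhg3 have points on both sides of 0.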

How the data were processed

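Polyadenylated RNA from pooled islets was sequenced from stranded TruSeq libraries, per the labels' protocols. The authors deposited raw counts of reads for each gene as 1 table of 6 libraries. Tools named by the submitters' processing notes are TopHat2 2.1.1 with Bowtie2 2.2.9 and HTSeq 0.9.0, beside bcl2fastq 2.20 and FastQC, and the build is mm9. Their roles, the annotation and the strand setting were not given in the sources used here.

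The labels set the groups; replicate numbers follow accession order and pair nothing. Nothing but the pooling says how the pools were made, so p-values measure the spread between these pools. The test was that of edgeR 4.0.16 under R 4.3.3 (filterByExpr, TMM, quasi-likelihood fit with genotype only, Benjamini-Hochberg adjustment over 14539 genes, adjusted p under 0.05). Alternatives were other scalings, DESeq2 1.42.0, voom of limma 3.58.1, other filters, leaving out rows or libraries, and a loess offset (span 0.5) for transcript length. Of the steps, only the edgeR fit was run on simulated counts, in which the groups had the same make-up apart from a set of changed genes. That simulation did not copy the difference in ribosomal rows between the groups.

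By gene number, 24320 of 24407 rows matched RefSeq of GRCm38.p6, which differs from mm9 and gave only names, gene order and start windows. GENCODE M21 gave snoRNA sequences and median transcript lengths (99.28% of tested genes). Host and snoRNA pairs came from RefSeq positions, and their ratios were compared with scipy 1.17.1 after adding 0.5 CPM. Named were all hosts, every tested snoRNA inside them, up to 4 genes of smallest p from each of 16 lists (262 of 266 symbols found), and the 5 genes most alike to the hosts; genes next to the hosts and others named beside these were added by position or with their values in view. The hosts and the lists were chosen with earlier results of these data known. Figures were drawn with matplotlib 3.10.9.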

Additional observations from a re-analysis of the deposited data

How the results depend on the processing

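No paired analysis was possible because the replicate numbers only follow accession order and the labels pair no libraries. Beside 2 hosts called higher and 0 lower, total-count scaling called 0 higher and 8 lower, where 78.8% of all genes were called lower. A filter of 10 CPM in 3 libraries, which left 5 hosts, and the length offset, which left 8, each called 1 higher (3.52% and 0.841% of all genes higher). Snhg11 was the 1 host called lower by the DESeq2 Wald test, by voom with sample quality weights (16.3% of all genes lower), with no filter on low counts (0.663%) and without WT replicates 1 and 2 together (2.16%). Leaving out 1 library at a time gave 0 to 2 called higher and 0 to 1 lower: 0 higher without LCS replicate 1 (0.581% of all genes higher), 1 without LCS replicate 2 (1.77%) or 3 (0.547%) or WT replicate 2 (0.748%) or 3 (0.931%), 2 without WT replicate 1 (12.5%), and 1 lower without WT replicate 1 (7.68% of all genes lower).

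Total-count scaling gave log2 fold changes of -0.68 for Gas5, -0.94 for Snhg1, -0.79 for Snhg3, -0.95 for Snhg4, -1.07 for Snhg5, -0.70 for Snhg7 and -0.78 for Snhg12, which all include its shift of the median gene, and 0.27 for Snhg8 and 0.03 for Snhg6, neither called. Voom with quality weights gave -0.10 for Snhg1, -0.31 for Snhg4 and -0.087 for Snhg5, and the length offset gave -0.14 for Snhg1, -0.13 for Snhg3 and -0.17 for Snhg5; the cause was not tested. Snhg5, near 0 throughout, was at -0.0055 with DESeq2 size factors, -0.0061 with the DESeq2 Wald test, -0.019 with voom and -0.014 without WT replicates 1 and 2. Leaving out 1 library at a time ranged from -0.0056 to 0.28 for Snhg1, -0.078 to 0.35 for Snhg4 and -0.18 to 0.15 for Snhg5. Without WT replicate 1, Gas5 was at 0.26, Snhg3 at 0.085 and Snhg7 at 0.14, and Snhg12 was at 0.15 without LCS replicate 1, 0.19 without WT replicate 1 and 0.60 without LCS replicate 2. Ratio differences within Snhg12 turned for Snora16a (-0.075 with 2 CPM added; -0.54 to 0.46 with 1 library left out), Snora61 (-0.031; -0.39 to 0.57) and Snord99 (-0.39 to 0.071 with 1 library left out). The direction of the other 6 ratios held in all 8 settings tried for each, but not their size or p (0.1 with 0.1 CPM and 0.6 with 2 CPM added for Snora17, 0.1 with 2 CPM for Snord47). Low counts limit several snoRNAs, among them Snord87, Snord47 and, in WT, Snora74a.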
